A study of Homo sapiens with 6 samples.

Results

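The RNA levels of 10 genes of the FOXO pathway were examined in an established human bladder cancer cell line, 5637, in which an RNA demethylase had been steered to HRAS transcripts. The genes are those of a list: the transcription factors FOXO1, FOXO3 and FOXO4, and the FOXO targets IRS2, PIK3IP1, TXNIP, SESN3, CCNG2, BCL6 and CITED2. They were found by symbol, and all 10 stood among the 60664 rows of the count table. Per the series description, cells of both groups were transfected with dCas13b-FTO, in which a Cas13b without nuclease activity, led to its RNA by a guide, carries FTO, a demethylase that acts on N6-methyladenosine (m6A) in RNA. The sample titles name dCas13b alone and the table's columns FTO. In the control group (3 libraries) the fusion was delivered together with a control guide RNA, and in the other group (3 libraries) with a guide RNA against HRAS, a small GTPase that signals through RAF-MEK-ERK and through PI3K-AKT. RNA was taken at 48 h. The labels do not say whether separate cultures stand behind the replicates of a guide, and p-values therefore reflect the spread of these libraries, which may be technical only.

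FOXO factors are forkhead transcription factors held in check by growth factor signalling. AKT phosphorylates them, 14-3-3 proteins then bind them, and they leave the nucleus, so that their targets are transcribed less when AKT is active and more when it is inhibited. The control is mainly on the protein, and the mRNA of the factors need not report it. The targets include feedback genes of the pathway itself, genes of metabolism and stress defence, and genes that slow the cell cycle. Each of them also answers to other regulators.

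FOXO proteins bind sites with the core GTAAACA. To show where the members carry such letters close to their start, a window at the RefSeq gene start (GRCh38.p14) was searched on both strands. The window ran from 250 bases before to 50 bases after the start. The letters searched for were GTAAACA and the E-box CACGTG, a site of MYC-like factors. E-boxes of other letters were not searched for, so sites of MondoA-type factors may be missed. All 10 members had a window. GTAAACA was found in 2 of them, TXNIP and FOXO4, and in 3.42% of 35116 promoter windows of the same length. CACGTG was found in 2, CCNG2 and CITED2, and in 7.26% of all windows. The related letters CAAAACA, read as TGTTTTG on the other strand and known from insulin response elements, were added after the IRS2 window had been read. They occurred in IRS2 alone among the members and in 4.92% of all windows. The motifs do not overlap one another here. Shown 5′ to 3′ on the gene's own strand, with the motif in capitals, are the 250 bases before the start of TXNIP (chr1:145996580-145996829, minus strand) and of IRS2 (chr13:109786584-109786833, minus strand). Sites of 30 bases follow for FOXO4 (chrX:71095862-71095891, plus strand), CCNG2 (chr4:77157165-77157194, plus strand) and CITED2 (chr6:139374784-139374813, minus strand).
TXNIP: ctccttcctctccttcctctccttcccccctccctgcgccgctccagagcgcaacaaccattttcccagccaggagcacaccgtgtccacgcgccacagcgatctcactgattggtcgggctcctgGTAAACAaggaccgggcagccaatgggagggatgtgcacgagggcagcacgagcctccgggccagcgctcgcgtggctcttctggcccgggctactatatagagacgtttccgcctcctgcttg
IRS2: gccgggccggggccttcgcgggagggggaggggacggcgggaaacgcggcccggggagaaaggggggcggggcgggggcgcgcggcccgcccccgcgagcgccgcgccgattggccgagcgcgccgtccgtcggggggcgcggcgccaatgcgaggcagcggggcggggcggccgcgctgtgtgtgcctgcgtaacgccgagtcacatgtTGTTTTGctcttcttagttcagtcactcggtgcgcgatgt
FOXO4: ccccggcgagtgGTAAACAgagacgtcagg
CCNG2: tccgcggggagtCACGTGccccgccccctt
CITED2: cagcctctgcagCACGTGccgcgggcggcg
The motif began 124 bases before the start in TXNIP, 40 before it in IRS2, 30 before it in CCNG2 and 153 before it in CITED2, and 23 bases after it in FOXO4. These are matches of letters in a short window, and binding was not measured. The windows ranged from 45% GC in SESN3 to 78.3% in FOXO3.

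Library totals ran from 24968702 to 32283370 counts. No pair of libraries agreed within sampling noise (chi-square per degree of freedom from 3.17 to 43.2). HRAS itself, the targeted gene, had 146, 230 and 169 CPM (counts scaled to library size with TMM factors) in the control libraries, in the order of replicates 1 to 3. In the same order it had 200, 167 and 184 CPM with the HRAS guide, and the groups overlapped. Of 12 epithelial and urothelial markers 10 were above 1 CPM, with a summed level of 10000 to 13300 CPM in the control group and 10200 to 11700 CPM in the HRAS guide group. UPK1A and UPK3A were under 1 CPM, and UPK2 averaged 1.28 and 1.38 CPM in these groups. Of 5 immune markers 0 were above 1 CPM, and their sum stayed under 1 CPM in every library. Of 5 fibroblast and muscle markers 2 were above it, with sums of 160 to 219 CPM in control and 147 to 192 CPM in HRAS guide libraries. The 3 neural markers (SOX2, NEFM and NEFL) were all above it, with sums of 97.4 to 116 and 101 to 108 CPM. Above it were also 1 of 3 endothelial and 0 of 2 red cell markers. Across genes, the libraries differed along GC content. Spearman's rho of GC content with a gene's relative level (log2 CPM less its mean over libraries) was -0.46, 0.61 and -0.21 for the control libraries and 0.27, -0.49 and 0.06 for the HRAS guide libraries, in replicate order, as a description across genes. Values after a correction for GC content and transcript length are therefore given beside the uncorrected ones.

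A difference between the guides was not detectable for any of the FOXO factors at this replication. FOXO3 (ENSG00000118689, chromosome 6, 108559835 to 108684774, GRCh38), the most abundant of them, had 138, 105 and 129 CPM in the control libraries, in replicate order here and below. With the HRAS guide it stood at 105, 123 and 117 CPM. The lowest library of each group had almost the same level, and the groups overlapped. The log2 fold change, HRAS guide minus control guide here and below, was -0.11 ± 0.11 (SE), and its 95% interval corresponds to 0.778 to 1.11 times the control level. FOXO4 (ENSG00000184481, chromosome X, 71096197 to 71103535) stood at 27.4, 31.7 and 29.2 CPM in the control libraries. With the HRAS guide it stood at 28.6, 26.5 and 25.4 CPM, so that 1 HRAS guide library lay inside the control range. Its log2 fold change was -0.13 ± 0.10, with an interval of 0.778 to 1.07 times the control level. FOXO1 (ENSG00000150907, chromosome 13, 40469953 to 40666597), the founding member studied in liver and lymphocytes, was scarce in these cells. It stood at 17.6, 14.1 and 14.0 CPM with the control guide and at 15.5, 14.7 and 13.2 CPM with the HRAS guide. Control replicate 1 lay above the other libraries, and the rest overlapped. For FOXO1 the log2 fold change was -0.08 ± 0.13, or 0.779 to 1.15 times the control level, and it turned to 0.04 without control replicate 1. All 3 factors had an adjusted p of 1.00 by edgeR. A part of the FOXO1 exons (4.32% of their bases) overlaps a long non-coding RNA gene on the same strand.

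**Figure D1:**
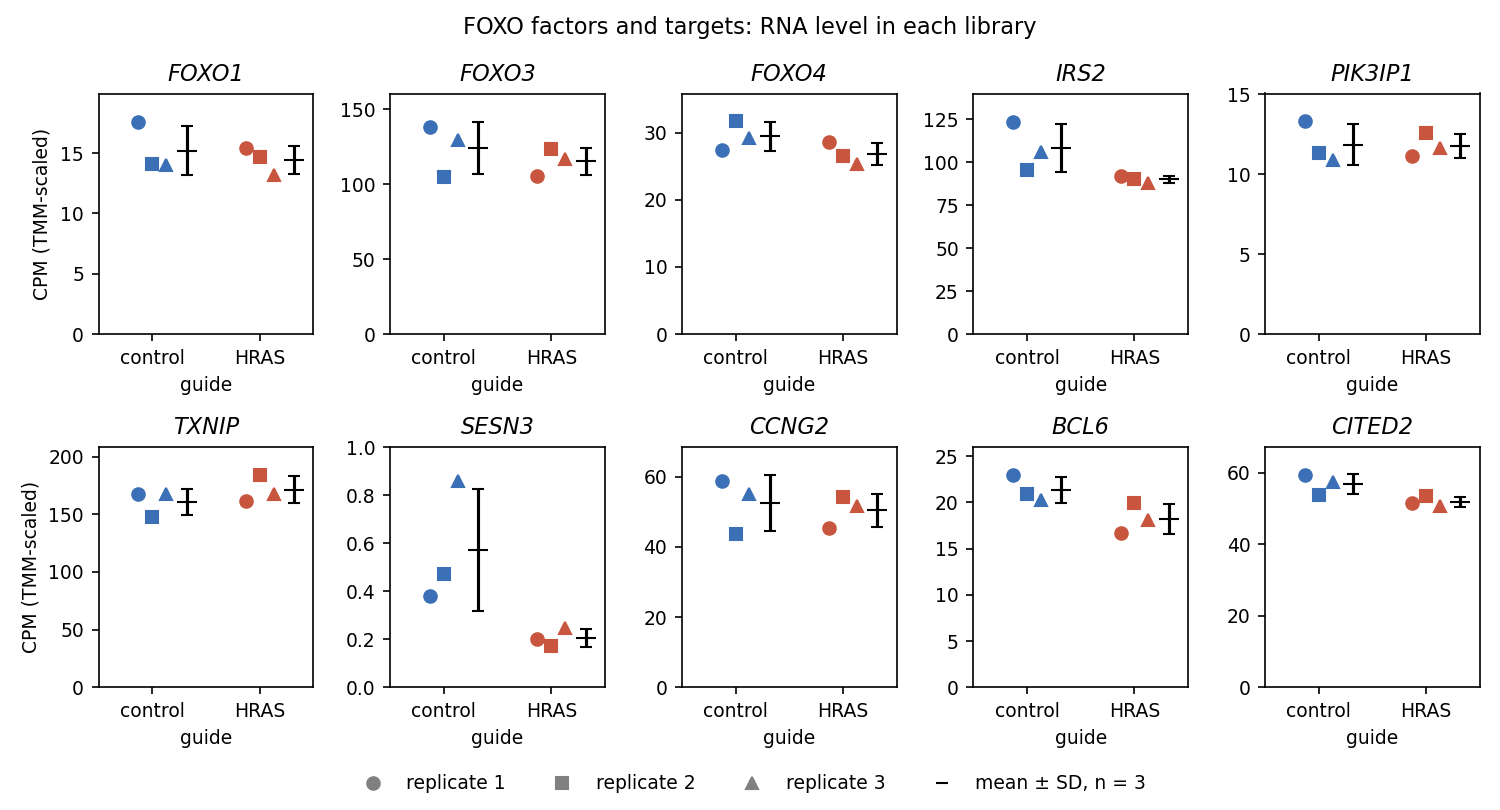
RNA level of each member (y axis, TMM-scaled CPM from 0) in the control guide (blue) and HRAS guide (red) libraries, with the marker shape giving the replicate number and the black bar the mean ± SD (n = 3). The groups overlap for 6 of the 10 genes, and the HRAS guide libraries all lie below the control libraries for IRS2, SESN3, BCL6 and CITED2. Of all genes tested 4% were separate and lower in this way, and 4.81% were separate and higher. SESN3 passed the filter on low counts through its control libraries alone, and IRS2 overlapped after the GC and length correction.

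Set per kilobase of merged exons, so that genes can be compared with each other, the members covered a wide range of levels. TXNIP was highest at 45.8 ± 3.25 CPM per kb (SD over all 6 libraries), followed by CITED2 at 21.5 ± 1.31, FOXO3 at 15.5 ± 1.72 and IRS2 at 12.2 ± 1.65. FOXO4 (8.17 ± 0.64), CCNG2 (6.89 ± 0.79), BCL6 (3.33 ± 0.37), PIK3IP1 (3.10 ± 0.25) and FOXO1 (2.38 ± 0.25 CPM per kb) followed. SESN3, at 0.037 ± 0.024 CPM per kb, was near the floor of detection. By the ranges over the 6 libraries, FOXO3 and IRS2 were not separated from each other, nor FOXO4 from CCNG2, nor BCL6 from PIK3IP1. FOXO3 was thus the highest of the FOXO factors per length in every library. The fourth factor gene, FOXO6, not among the listed members, stood at 3.78 ± 0.49 CPM per kb, with a range that overlapped that of BCL6. Merged exons include those of minor transcripts, so long genes with unused exons can be understated on this scale.

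**Figure D2:**
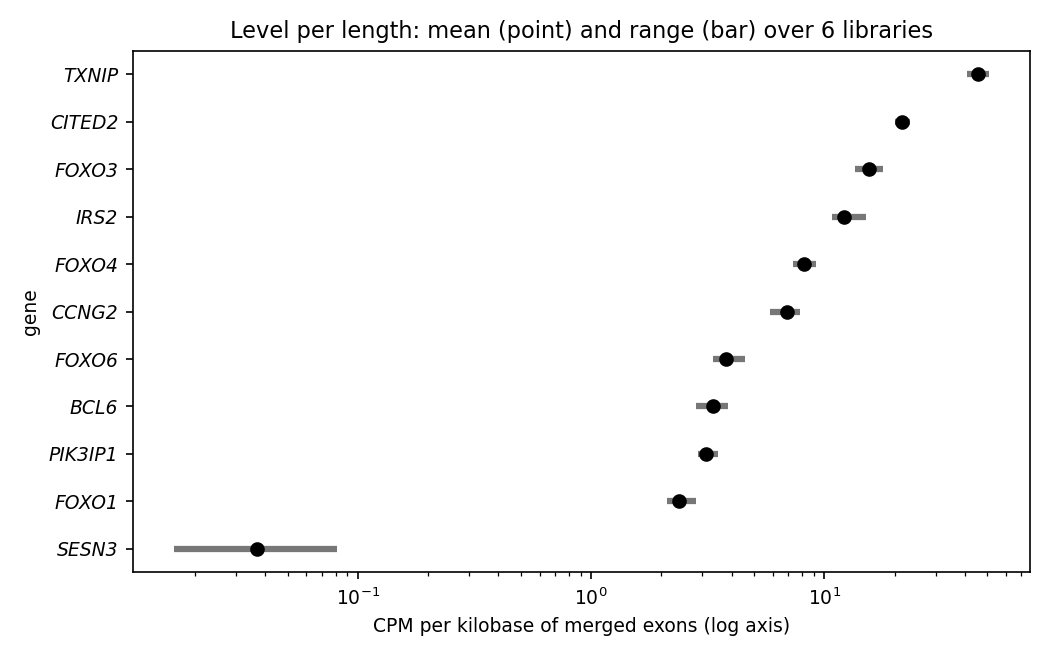
Level per length of the members and FOXO6 (x axis, CPM per kilobase of merged exons, log axis), as the mean (point) and range (bar) over the 6 libraries. TXNIP, CITED2 and FOXO3 lead the order, and SESN3, at 0.037 CPM per kb, lies far below the rest.

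Among the targets that feed back on the pathway, IRS2 was lower in each HRAS guide library than in any control library, without passing the test. IRS2 encodes the adaptor that couples insulin and IGF1 receptors to PI3K, and FOXO factors raise its transcription when insulin signalling is weak. IRS2 (ENSG00000185950, chromosome 13, 109752698 to 109786568) stood at 123, 95.5 and 106 CPM with the control guide. With the HRAS guide it stood at 91.8, 90.0 and 88.0 CPM. The HRAS guide libraries lay close together and the control libraries were spread, with replicate 1 highest and replicate 2 near the HRAS guide group. The log2 fold change was -0.27 ± 0.10, or 0.831 of the control level with an interval of 0.708 to 0.975, and the adjusted p was 1.00 by edgeR. After the GC and length correction the groups overlapped, at 126, 87.4 and 109 CPM against 91.2, 95.5 and 87.3 CPM, and the log2 fold change was -0.23 ± 0.11 (edgeR adjusted p = 0.863). The correction widened the spread of IRS2 within groups (SD of log2 level from 0.13 to 0.20), in contrast to most members. Leaving out control replicate 2 from the corrected fit gave -0.36 ± 0.06 and an adjusted p of 0.00412, the only call of a member in any fit run. In that fit 0.641% of all genes were called, and 0.512% were called lower. Without control replicate 1 the corrected value was -0.10, so the size of the IRS2 difference depended on which control library was kept.

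PIK3IP1, a membrane protein that inhibits PI3K, was the member with the least difference. PIK3IP1 (ENSG00000100100, chromosome 22, 31281593 to 31292534) stood at 13.3, 11.3 and 10.9 CPM with the control guide and at 11.1, 12.6 and 11.6 CPM with the HRAS guide, and the groups overlapped fully. Its log2 fold change was -0.0083 ± 0.12, with an interval of 0.826 to 1.20 times the control level. Its sign was positive after the GC and length correction (0.01 ± 0.11).

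Of the metabolic and stress genes, TXNIP and SESN3 differed in sign. TXNIP binds thioredoxin and limits glucose uptake, and it is induced by FOXO factors and, with glucose, by MondoA. TXNIP (ENSG00000265972, chromosome 1, 145992435 to 145996600) stood at 167, 148 and 167 CPM with the control guide and at 162, 184 and 167 CPM with the HRAS guide. Only HRAS guide replicate 2 lay clearly above the control range. The difference on the log2 scale was 0.09 ± 0.09, with an interval of 0.927 to 1.22 times the control level and an adjusted p of 1.00 by edgeR. After the correction the groups no longer overlapped, at 159, 162 and 164 CPM against 165, 177 and 168 CPM, but the gap between control replicate 3 and HRAS guide replicate 1 was small. The corrected log2 fold change was 0.07 ± 0.05 and did not pass (adjusted p = 0.924 by edgeR). It was the only member with a positive value in every fit run, from 0.03 to 0.15.

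SESN3, a sestrin that restrains mTORC1, rested on very few reads. SESN3 (ENSG00000149212, chromosome 11, 95165513 to 95232541) had 11, 13 and 26 counts in the control libraries and 5, 5 and 8 counts in the HRAS guide libraries, or 0.381, 0.471 and 0.860 against 0.201, 0.171 and 0.246 CPM. All 3 HRAS guide libraries lay below the control libraries, and control replicate 3 held more counts than both other control libraries together. The fitted log2 fold change of -1.45 ± 0.46 had an adjusted p of 1.00 in edgeR, and the interval ran from 0.180 to 0.745 times the control level. SESN3 passed the filter on low counts (about 0.348 CPM in 3 libraries) through its control libraries alone, so its passing already required a higher level there. A filter of 1 CPM removed it. Without control replicate 3 the value was -1.03. The other sestrin genes were far more abundant and overlapped between groups. SESN2 averaged 22.9 ± 3.09 CPM in control and 22.4 ± 0.40 CPM in HRAS guide libraries, with a log2 fold change of -0.03 ± 0.12. For SESN1 the means were 15.5 ± 1.60 and 15.6 ± 1.32 CPM (SD, n = 3), with 0.0093 ± 0.12. Antisense exons overlap 7.09% of the SESN1 exon bases.

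Among the targets that act on proliferation and transcription, BCL6 and CITED2 were lower in every HRAS guide library and CCNG2 overlapped. BCL6, a transcriptional repressor best known from germinal centre B cells, stood at 22.9, 20.9 and 20.3 CPM with the control guide. With the HRAS guide it stood at 16.7, 19.9 and 18.1 CPM (ENSG00000113916, chromosome 3, 187721377 to 187745727). The gap was narrow, with HRAS guide replicate 2 just under control replicate 3. On the log2 scale the difference was -0.23 ± 0.11 without and -0.24 ± 0.08 with the correction, and neither passed (adjusted p = 1.00 and 0.720 by edgeR). Antisense genes overlap 2.88% and 5.36% of its exon bases, and without strand their reads cannot be told apart from those of BCL6.

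CITED2, a coactivator partner of CBP and p300 that competes with HIF1A, had the tightest replicates. CITED2 (ENSG00000164442, chromosome 6, 139371807 to 139374620) stood at 59.3, 53.8 and 57.3 CPM with the control guide and at 51.5, 53.5 and 50.8 CPM with the HRAS guide. After the correction the control libraries stood at 57.7, 56.3 and 56.6 CPM and the HRAS guide libraries at 52.2, 52.4 and 51.0 CPM. The groups were apart on both scales, and the correction lowered the SD of the log2 level within groups from 0.06 to 0.02. On the log2 scale the difference was -0.13 ± 0.09 before and -0.13 ± 0.05 after the correction, 0.914 of the control level, and did not pass (edgeR adjusted p = 1.00 and 0.746). CCNG2, an atypical cyclin that slows the cell cycle and a much used indicator of FOXO activity, stood at 58.7, 43.6 and 55.2 CPM with the control guide and at 45.3, 54.3 and 51.6 CPM with the HRAS guide (ENSG00000138764, chromosome 4, 77157151 to 77433388). The groups overlapped. For CCNG2 the log2 fold change was -0.06 ± 0.13, with an interval of 0.790 to 1.17 times the control level, and it became 0.03 without control replicate 1.

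**Figure D3:**
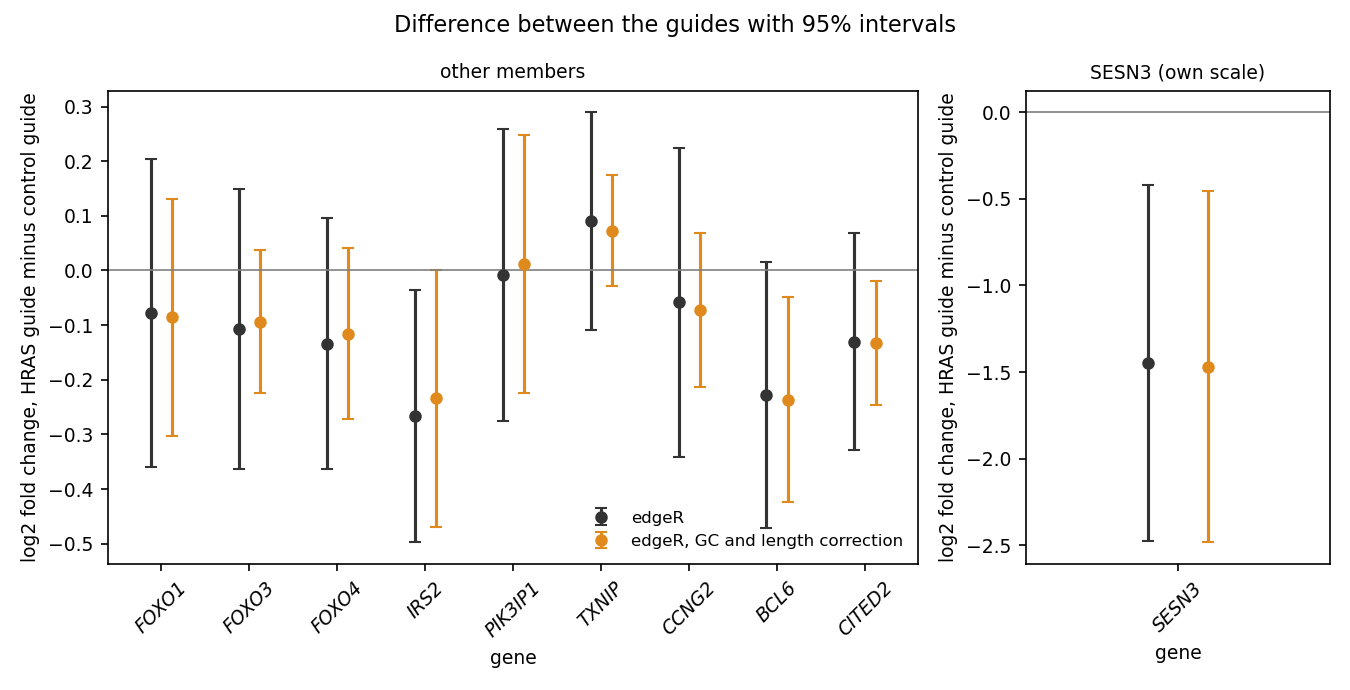
Log2 fold change of each member (y axis, HRAS guide minus control guide) with its 95% interval, from edgeR without (black) and with (orange) the GC and length correction, SESN3 on its own scale. The points of 9 members lie between -0.27 and 0.09, and the correction narrows the interval for most of them.

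In all, 0 of 10 members passed the threshold in edgeR (adjusted p under 0.05), against 0.0101% of 19836 genes tested, and 0 passed in DESeq2 (0.121% of genes) or after the correction (0.2%). At an unadjusted p under 0.05, 2 members were lower in edgeR, SESN3 and IRS2 (1.7% of all genes were lower by that rule), and 3 were lower after the correction, SESN3, BCL6 and CITED2 (3% of all genes). Leaving SESN3 aside, this rule kept IRS2 alone in edgeR, and BCL6 and CITED2 after the correction. All 10 had passed the filter on low counts, SESN3 as described. For 9 of 10 members the log2 fold change was below 0, and the median was -0.12, where 50.5% of all genes tested were negative with a median of -0.0014. Without SESN3, 8 of the other 9 were negative, and the median of the 9 was -0.11. The groups did not overlap, with the HRAS guide lower, for 4 members on the CPM scale, where 4% of all genes did so and 4.81% were separate and higher, and for 3 after the correction, where 6.28% did. Without SESN3, whose passing of the filter required higher control levels, these counts were 3 and 2 of 9 members. After the correction 1 member, TXNIP, was separate and higher, as were 6% of all genes. The count of negative members depended on the libraries kept: it was 6 of 10 without control replicate 1 and 7 of 10 without HRAS guide replicate 1.

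The members also varied between libraries of the same guide. The median over members of this relative log2 level was 0.19, -0.05 and 0.07 for the control libraries and -0.09, 0.0029 and -0.11 for the HRAS guide libraries, in replicate order. Control replicate 1 was highest and control replicate 2 lay among the HRAS guide libraries. After the correction the medians were 0.12, -0.02 and 0.06 against -0.10, 0.0012 and -0.11. FOXO3 and CCNG2 went most closely together, with Pearson's r of 0.98 over the 6 libraries before and 0.95 after the correction, as a description of libraries that share these trends. Before the correction FOXO4 and TXNIP had the most negative r, -0.76, which was -0.36 after it, where CITED2 and TXNIP had the most negative, -0.71. The pair FOXO3 and FOXO4 changed from -0.42 to 0.67 with the correction. The median GC content over a gene's annotated transcripts is 58.2% for FOXO4, against 49.1% for FOXO3 and 43.8% for CCNG2. The spread within groups became smaller with the correction for 7 of 10 members and larger for IRS2, PIK3IP1 and SESN3. In the libraries of negative GC trend (control replicates 1 and 3 and HRAS guide replicate 2), the difference was below 0 for 8 of 10 members and the median was -0.11. In those of positive trend (control replicate 2 and HRAS guide replicates 1 and 3) it was negative in 5 of 10, with a median of -0.04. The sets went by the sign of the trend alone. Within the positive set rho was 0.61 for the control library and 0.27 and 0.06 for the HRAS guide libraries, so the trend still differed between the guides. After the correction the counts were 8 and 7, with medians of -0.10 and -0.05. IRS2 stood at -0.34 and -0.09 in these sets, and at -0.29 and 0.03 after the correction, and SESN3, on its few counts, at -1.74 and -1.08, while BCL6 (-0.11 and -0.27) and CITED2 (-0.13 and -0.07) were negative in both. The part of the GC trend in the members' differences was not tested beyond this.

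**Figure D4:**
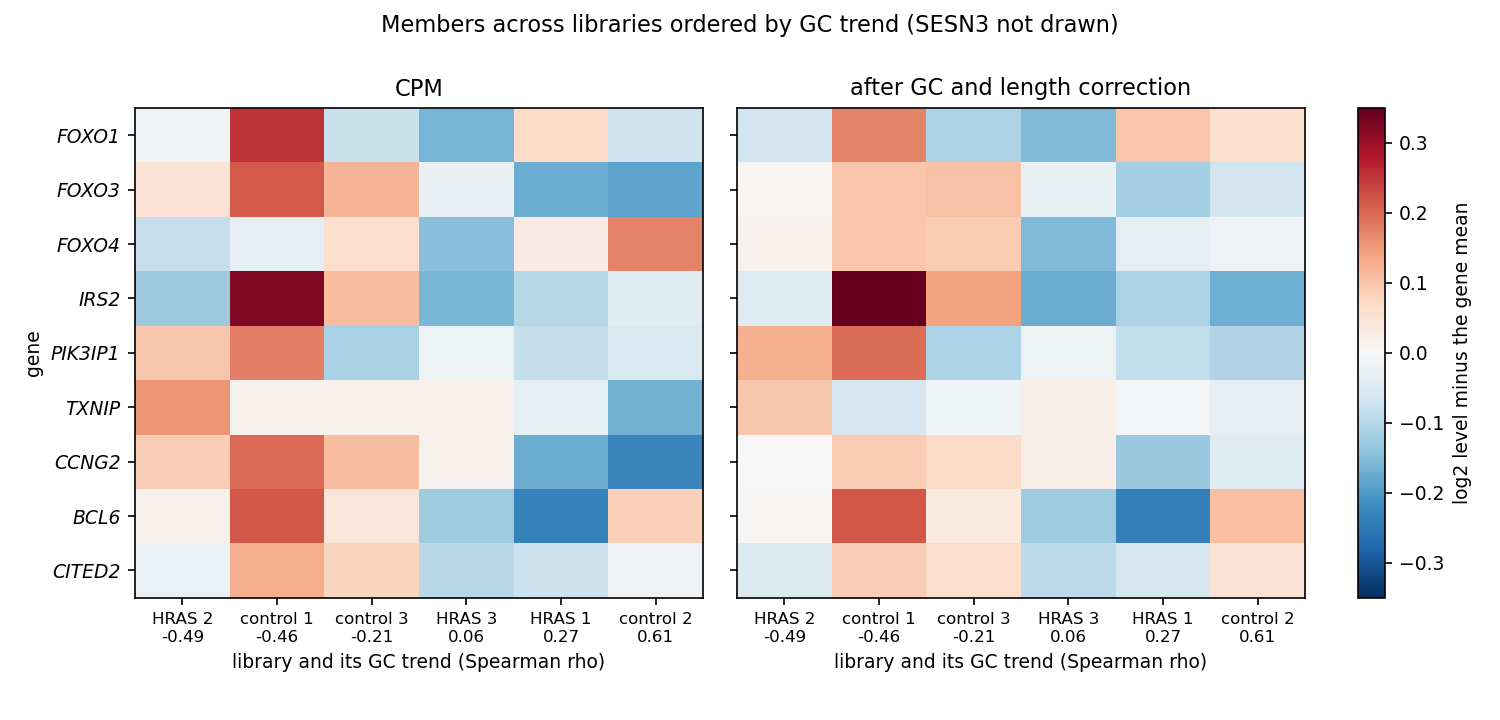
Log2 level of 9 members relative to the gene's mean (colour scale, red above and blue below) in each library, with libraries ordered along the x axis by their GC trend (Spearman rho across genes), before (left) and after (right) the GC and length correction. Before the correction FOXO3 and CCNG2 are higher in the libraries of negative trend and FOXO4 is highest in control replicate 2, these contrasts are paler afterwards, and control replicate 1 stays high for IRS2 and BCL6.

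Among other FOXO targets no gene was called in edgeR. Of 37 listed genes 32 were tested, 23 with a negative and 9 with a positive log2 fold change, the median was -0.05, and 0 passed. GADD45A, a growth arrest and DNA repair gene that p53 and stress kinases also induce, stood at 86.9, 88.6 and 91.6 CPM with the control guide and at 68.6, 68.3 and 68.1 CPM with the HRAS guide. On the CPM scale the groups were far apart relative to their spread. After the correction they were still apart, with a wider spread. The SD rose from 2.40 to 8.11 CPM in control and from 0.24 to 3.00 CPM in HRAS guide libraries. The log2 fold change was -0.38 ± 0.08 (edgeR adjusted p = 0.530, and 0.110 after the correction). DESeq2 called GADD45A at an adjusted p of 0.0491. By edgeR it was called at 0.0133 with the sign of the GC trend as a covariate. In the corrected fit without control replicate 2 edgeR called it at 9.33e-05. KLF6, a zinc finger factor that is also induced rapidly by growth factors, stood at 164, 124 and 157 CPM against 103, 122 and 109 CPM, with a log2 fold change of -0.41 ± 0.12 that did not pass (edgeR adjusted p = 1.00). It passed without control replicate 2 (adjusted p = 0.00735, and 9.4e-05 in the corrected fit) and without a filter on low counts (0.0489), and in no other fit run. The cell cycle inhibitor genes of the list, named here with its cell death genes after their values were seen, had log2 fold changes of both signs. CDKN1A averaged 233 ± 19.0 CPM in control and 204 ± 5.85 CPM in HRAS guide libraries (SD, n = 3), lower in each HRAS guide library, with a log2 fold change of -0.20 ± 0.08 that did not pass (edgeR adjusted p = 1.00, and 0.593 after the correction). CDKN1B averaged 34.1 ± 4.30 and 37.0 ± 1.76 CPM, with 0.12 ± 0.11, and CDKN2B had -0.03 ± 0.10. Of the cell death genes, BBC3 had -0.34 ± 0.20, overlapped in CPM and was lower in each HRAS guide library after the correction (-0.28 ± 0.11, edgeR adjusted p = 0.733). It was called with the GC trend as a covariate (-0.51, edgeR adjusted p = 0.0373). BCL2L11 averaged 38.8 ± 4.29 and 38.5 ± 1.65 CPM, with -0.01 ± 0.11, and TNFSF10 had 0.11 ± 0.07, higher in each HRAS guide library on the CPM scale only and without passing. BNIP3 had 0.03 ± 0.10. TRIB1, a pseudokinase gene, had -0.22 ± 0.11 and passed only in the corrected fit without control replicate 2 (-0.33, edgeR adjusted p = 0.00366). The split of the list was 23 negative and 9 positive after the GC and length correction, and 17 and 15 with the GC trend as a covariate. GTAAACA occurred in 1 of the 28 windows that these targets had, that of BCL2L11.

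No listed gene of the PI3K-AKT pathway was called. All 33 listed genes were tested, 25 negative and 8 positive, with a median of -0.03, and 0 passed in edgeR or in DESeq2. After the GC and length correction 25 were negative and 8 positive, with a median of -0.04. With the GC trend as a covariate 15 were negative and 18 positive, with a median of 0.0012. IRS1, the adaptor related to IRS2, had the smallest p, with 149 ± 9.41 CPM in control and 134 ± 4.24 CPM in HRAS guide libraries (SD, n = 3) and a log2 fold change of -0.15 ± 0.08. SGK2, a kinase related to AKT, followed, with 0.33 ± 0.31. For the kinases at the centre of the pathway, chosen after their values were seen, the log2 fold changes were -0.0071 ± 0.10 for AKT1 and 0.01 ± 0.11 for AKT2, and AKT phosphorylation was not measured. Of 21 regulators of FOXO proteins, such as 14-3-3 proteins, deacetylases and coactivators, 20 were tested, 15 negative and 5 positive, with a median of -0.02, and 0 passed. After the GC and length correction 18 were negative and 2 positive, and with the GC trend as a covariate 8 were negative and 12 positive. The acetyltransferase gene CREBBP (-0.14 ± 0.08) and the deacetylase gene SIRT1 (-0.17 ± 0.14) had the smallest p. CREBBP was lower in each HRAS guide library on both scales, with -0.16 ± 0.04 after the correction (edgeR adjusted p = 0.549). SIRT1 was so after the correction only, with -0.18 ± 0.08 (edgeR adjusted p = 0.812). Among 11 partners and regulators of the targets, 7 were negative and 0 passed. One of the 11 is ARRDC4, the arrestin related to TXNIP that MondoA also induces, and its log2 fold change was positive without passing (0.13 ± 0.13).

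**Figure D5:**
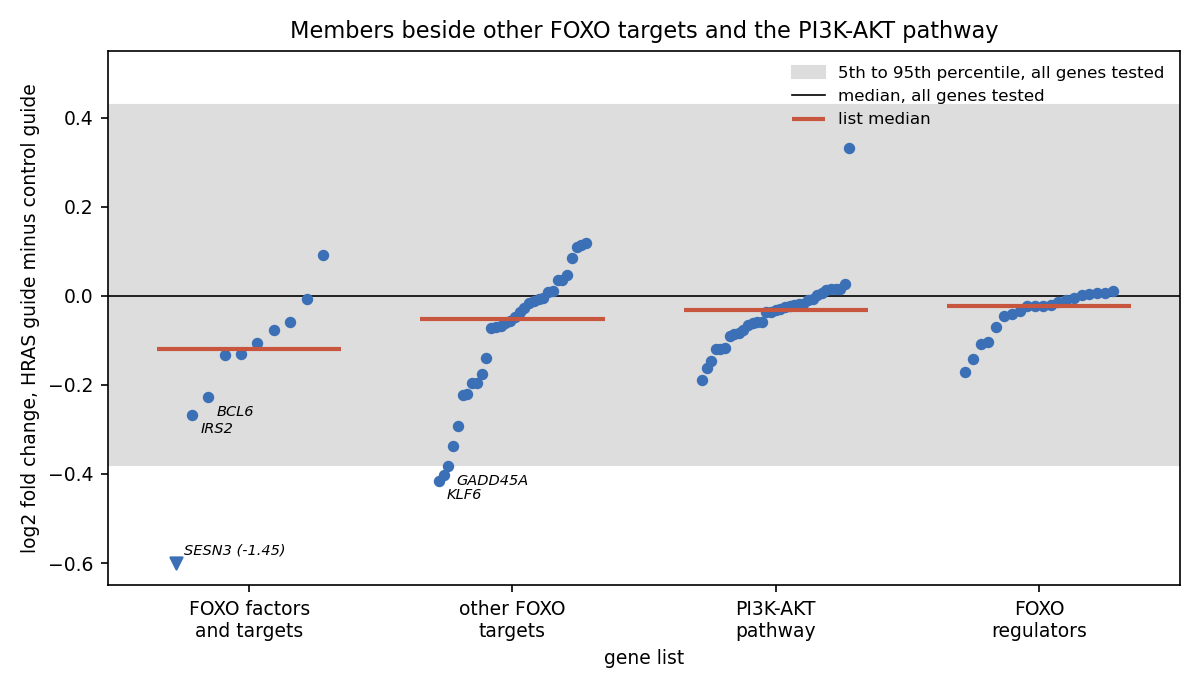
Log2 fold changes (y axis, HRAS guide minus control guide) of the tested genes of 4 lists, with the list median in red, the median of all genes tested as a black line and their 5th to 95th percentile (-0.38 to 0.43) in grey. SESN3, at -1.45, is drawn as a triangle at the lower edge, and the other 9 members lie inside the grey band.

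The library pattern of IRS2, the member of smallest p among those of at least 5 CPM, was compared with those of 11933 other genes of at least 5 CPM. The most alike were ELF4 (Pearson's r = 0.993), PRR11 (0.988), NEK6 (0.987), PER2 (0.980) and KCTD1 (0.979), over the 6 libraries. Their log2 fold changes ran from -0.14 to -0.07, against -0.27 for IRS2. The points share their libraries, depth and GC trend.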

How the data were processed

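The deposited values were whole-number counts per Ensembl gene, which the authors had not normalized, in a single table with a column per library. Columns were matched to samples by the guide and replicate number in their names. HISAT2, StringTie and DESeq2 are named as tools and hg38 as build, per the submitters' processing notes. For the counting step, the annotation release and the strandedness nothing is given in the sources used here. Of 60664 rows, 1 had no values and was left out. Gene symbols were looked up by Ensembl identifier (60463 had one), and coordinates, exon lengths, GC content and overlaps from GENCODE 29 on GRCh38, the assembly of hg38.

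The whole table was filtered with filterByExpr (19836 genes kept), scaled by TMM and tested in edgeR 4.0.16 (R 4.3.3) by quasi-likelihood on group alone, two-sided, with Benjamini-Hochberg adjustment over all genes and a threshold of 0.05. SEs were recovered from the F statistic, and intervals are at 95%. The GC and length correction fitted each library's relative log2 CPM (prior count 2) to a spline in GC content (5 degrees of freedom) and another in the log10 of transcript length (4), and the fit served as offsets for 19489 genes. Alternatives were DESeq2 1.42.0, limma-voom (limma 3.58.1), other scalings and filters, a replicate block, a covariate for the sign of the GC trend, and each library left out. The scripts were tested on simulated data, with changes set in genes of at least 5 CPM. Where the data carried the fitted GC trends, edgeR recovered 0% of 50 genes changed 1.25-fold. It recovered 42% of 50 changed 1.5-fold and 100% of 50 changed 2-fold. With the correction 36%, 86% and 100% were recovered, with 11 false calls against 0 without it. The trends put into the simulated data came from the same fit that the correction removes. The gain in recovery was thus favoured by the setting and does not show how well the correction suits the real libraries.

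All members and HRAS were named whatever their values. From each other list the genes past the threshold were named or, with none, the 2 of smallest p, except where a gene is not reported here. For the member of smallest p with at least 5 CPM, the 5 genes of highest correlation were named. The members and lists were chosen with earlier results of these data known.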

Additional observations from a re-analysis of the deposited data

How the results depend on the processing

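Among 22 alternatives the only call of a member was IRS2 in the corrected fit without control replicate 2 (-0.36, adjusted p 0.00412), and 0 PI3K-AKT genes were called in any of them. The number of all genes called, 2 in edgeR, was 24 in DESeq2, 1 in limma-voom, 1 with DESeq2 size factors, 57 without a filter, 1 with a filter of 1 CPM, 39 with the GC and length correction and 81 with the GC trend set as a covariate, and with a library left out it ran from 1 to 24 in the uncorrected and from 7 to 129 in the corrected fit, both highest without control replicate 2. The other FOXO targets called, 0 in edgeR, numbered 1 in DESeq2 (GADD45A), 1 without a filter (KLF6), 2 with the GC trend set as a covariate (GADD45A and BBC3), and 0 to 1 with a library left out of the uncorrected fit (KLF6, without control replicate 2). The corrected fit without control replicate 2 called GADD45A, KLF6 and TRIB1. The cause of these shifts was not tested. With the replicate number as a block 1 gene was called, and 5 with the block and the correction together, none of them a member. Same-numbered libraries did not deviate together (correlations of -0.19, -0.29 and -0.06), and no library correlated best with its own number. These correlations were taken on uncorrected levels, which carry the GC trend, so they cannot decide whether the numbers pair the samples. The median of the members, -0.12, ran from -0.17 to -0.06 with a library left out. PIK3IP1 turned positive with library totals alone (0.0141), with the correction (0.0118), with the replicate block and correction (0.0162) and with the covariate (0.0312), and ran from -0.0735 to 0.0795 with a library left out and from -0.0493 to 0.118 when corrected (0.0549 and 0.026 without HRAS guide replicates 1 and 3). CCNG2 turned positive with the covariate (0.0408) and ran from -0.174 to 0.0257 with a library left out, and FOXO1 ran from -0.142 to 0.0353. BCL6, CITED2, FOXO3, FOXO4, IRS2 and SESN3 were negative and TXNIP positive in every alternative in which they were tested. With 3 libraries a group, differences of the size seen in most members lay within the spread between libraries, and for SESN3 the few counts set the limit.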
